A study of Mus musculus with 58 samples.

Results

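Potassium channel genes were taken as the genes of the table whose mouse symbol is Kcn followed by letters and a number, with a mean normalised value of at least 10 over the libraries. The pattern matched 81 symbols, and 78 of the 18088 genes in the table met the minimum. Kcnj15 (9.39), Kcnj5 (8.39) and Kcnn4 (8.36) lay just under it, and Kcnk15 (14.6), Kcnh8 (16.6) and Kcnmb1 (19.4) just above. By symbol, 37 members were voltage-gated, 12 inward rectifiers, 7 calcium-activated, 11 two-pore and 11 auxiliary subunits. The voltage-gated class includes 9 electrically silent subunits of the Kcnf, Kcng, Kcns and Kcnv families. The calcium-activated class includes the sodium-activated Kcnt1 and Kcnt2 and the pH-sensitive Kcnu1, which are relatives by sequence.

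Prefrontal cortex of C57BL/6J mice was taken on postnatal day 25, at the end of 3 weeks in which pups had received a drug through their mothers' milk, from postnatal day 3 to day 24. The 58 RNA-seq libraries came from mice labelled heterozygous for Kmt5b (HT), which encodes a histone H4 lysine methyltransferase, or wild-type (WT). HT mice had received lithium (10 libraries), fluoxetine (10) or vehicle (10), and WT mice lithium (8), fluoxetine (10) or vehicle (10), with males and females in equal number in every group. Fluoxetine is a serotonin reuptake inhibitor and lithium a mood stabiliser.

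The authors' values are read counts per gene divided by a size factor for each library, here called normalised values, from 23.5 to 38.6 M reads per library with a median of 27.6 M. The Kmt5b value was not lower in HT, at 1734 ± 98.3 in 30 HT libraries and 1654 ± 137 in 28 WT libraries (SD; log2 difference 0.07, limma adjusted p = 0.186). Which exons the allele lacks is not given in the sources used here, so this sum does not check the labels, and each genotype result below is between libraries labelled HT and WT. Litter is not given either, and pups of 1 litter share a mother's drug, so p-values measure the spread between libraries and may be too small. Excitatory neuron markers were all in the table (12 of 12, summed value 113680 to 185962). The tissue is a mixture, in which fewer cells of a type and less RNA per cell cannot be told apart.

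Potassium channels let potassium leave the cell and so set the resting potential, end the action potential and limit repetitive firing. Voltage-gated channels open on depolarisation, inward rectifiers hold the potential near rest, calcium-activated channels build the pause after spikes, and two-pore channels carry the leak current. Silent subunits form no channel alone and modify others, and auxiliary subunits change gating or surface delivery. Neurons use most classes side by side, while astrocytes rely on the inward rectifier Kcnj10 and its partner Kcnj16 to clear potassium.

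Divided by exon length, the levels of the members spanned from 3.65 per kb (Kcnh8) to 1689 per kb (Kcnj4), with a median of 163.7 normalised counts per kb. The 10 highest members held 41.8% of the summed level per kb, and all 78 together 0.3023% of that of the whole table. Voltage-gated members with high levels per kb were the silent subunit Kcnf1 (1198), the ether-a-go-go-like channel Kcnh3 (847.7) and the silent subunit Kcnv1 (758.3). Among inward rectifiers Kcnj4 was followed by the G protein-gated Kcnj9 (1131), the astrocytic Kcnj10 (877.8) and the G protein-gated Kcnj3 (756.6), while Kcnj14 was lowest (17.48). The calcium-activated class was led by the large-conductance pore Kcnma1 (590 per kb), Kcnt1 (433.2), Kcnt2 (144.6) and the small-conductance channel Kcnn2 (135.3), with Kcnu1 at 25.42. Two-pore members ran from Kcnk1 (1208), Kcnk9 (496.8), Kcnk2 (308.4) and Kcnk3 (157.9) down to Kcnk15 (7.309). Auxiliary members were led by Kcnab2 (1590), a subunit of Kcna channels, Kcnip3 (1154) and Kcnip2 (709.1), which bind Kcnd channels, and Kcnmb4 (619.3), which binds Kcnma1. Kcnmb1 was the lowest auxiliary member, at 4.618 per kb.

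**Figure D1:**
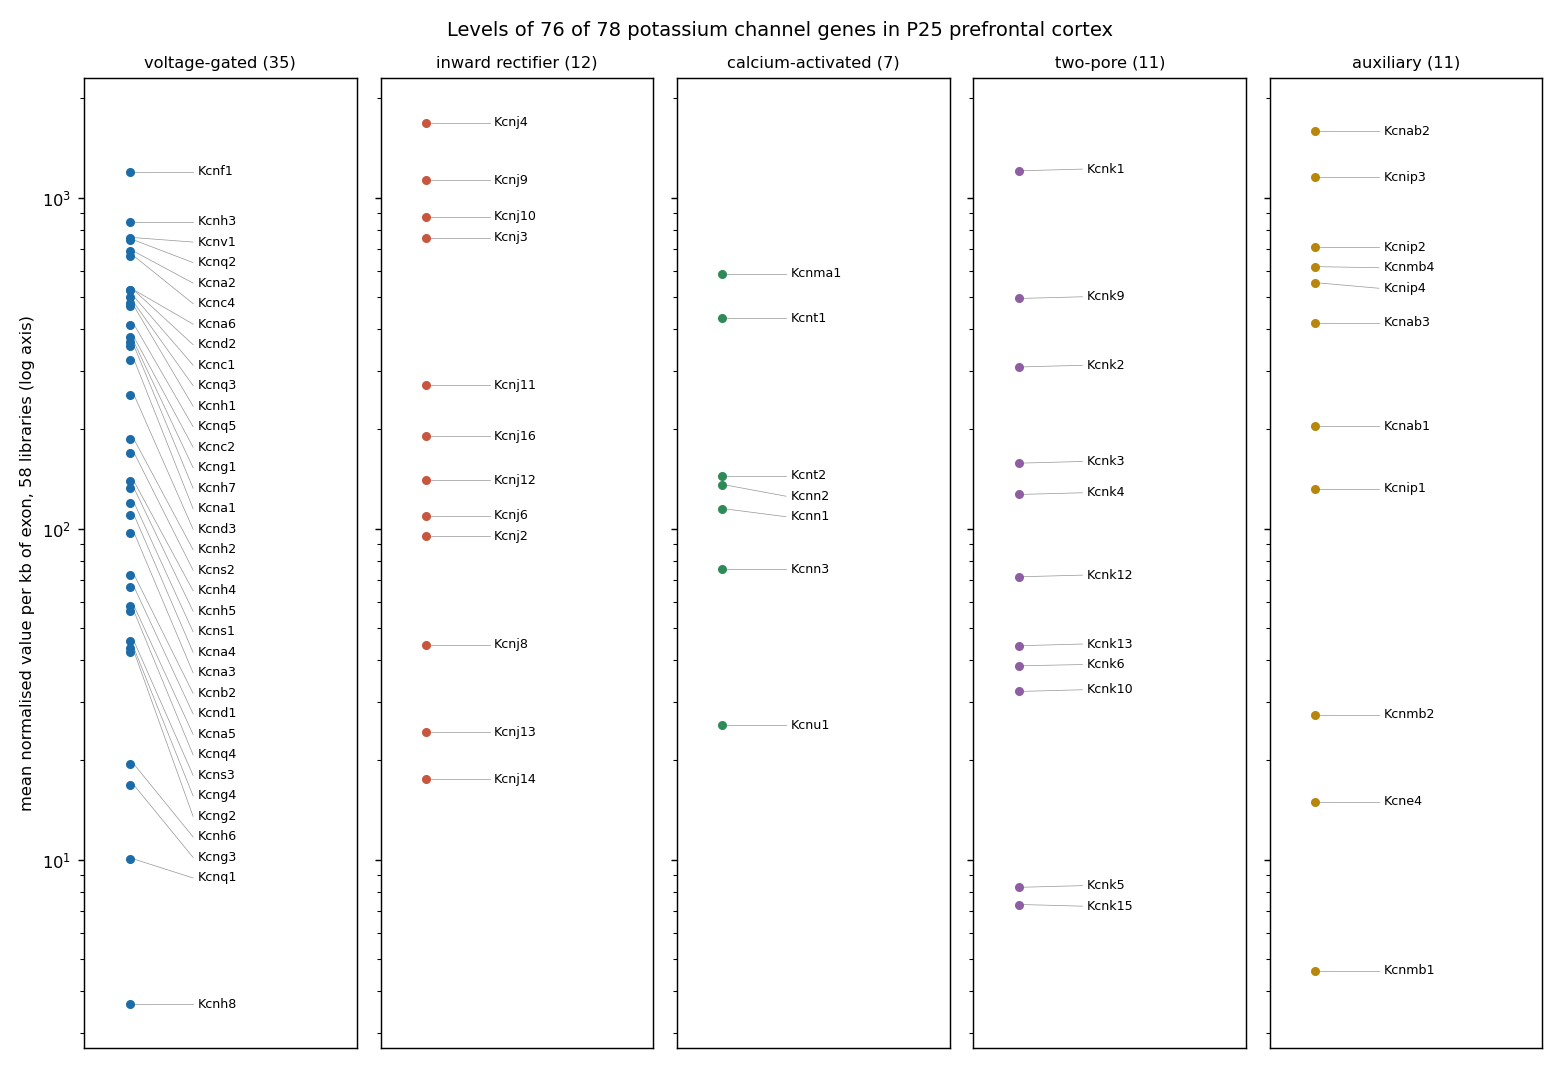
Mean normalised value per kb of exon over the 58 libraries (log axis) for 76 of the 78 members, 1 panel per channel class and 1 labelled point per member. The highest member of each class lies between 590 (Kcnma1) and 1689 per kb, and the levels run from 3.65 (Kcnh8) to 1689 (Kcnj4).

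The classes held narrow ranges of the total. Voltage-gated members took 42.7% to 46.5% of the members' summed level per kb of exon in any library (median 45.3%). Auxiliary members took 19% to 21.9% (median 20%), inward rectifiers 18.5% to 21.6% (19.8%), two-pore members 8.35% to 10% (9.28%) and calcium-activated members 4.8% to 6.19% (5.67%). The mean share of calcium-activated members was 5.79% in HT lithium, 5.76% in HT fluoxetine and 5.4% in HT vehicle libraries. In WT it was 5.55% under lithium, 5.83% under fluoxetine and 5.41% under vehicle. These shares were not tested.

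Dissections differed in neighbouring tissue. The summed value of 10 olfactory bulb markers ran from 628.5 in WT fluoxetine male 2 to 19420 in HT fluoxetine male 4, with high sums of 17757 in WT fluoxetine male 1 and 16112 in WT fluoxetine female 3. The summed value of 10 striatal markers was 16180 in HT fluoxetine female 2 and at most 9925 in any other library. In a limma fit with the mean log2 level of the olfactory bulb markers added to the groups, 16 members passed with a positive slope, 34 passed with a negative slope and 28 did not pass. Of all genes tested 44.1% passed in that fit, 20.6% with a positive and 23.5% with a negative slope. Kcnk15, a relative of the acid-sensitive Kcnk3, had the steepest slope, 1.03 on the log2 scale per unit of marker level (SE 0.0463, limma adjusted p = 2.19e-25). It was listed at 0 in 5 libraries and reached 56.5 in WT fluoxetine libraries. Other positive slopes were 0.35 for Kcnh8 and 0.22 for Kcna5. The steepest negative slopes were -0.11 for Kcns1 and Kcns3, and Kcnc4 and Kcnj9 had -0.08 each. Of the members named below as called in a drug comparison, Kcnn2, Kcnj2, Kcnf1, Kcnk12, Kcnj4 and Kcnc1 did not pass in this fit. Nor did Kcnt1, Kcnj6, Kcna2, Kcne4, Kcnk6, Kcnj16, Kcnj3 and Kcnj12. Kcna4 (0.09), Kcnd3 (0.09), Kcnh2 (0.07), Kcnh6 (0.07) and Kcnk10 (0.07) passed with a positive slope. Kcng1 (-0.09), Kcnh4 (-0.06), Kcnh7 (-0.05) and Kcnk3 (-0.03) passed with a negative one.

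**Figure D2:**
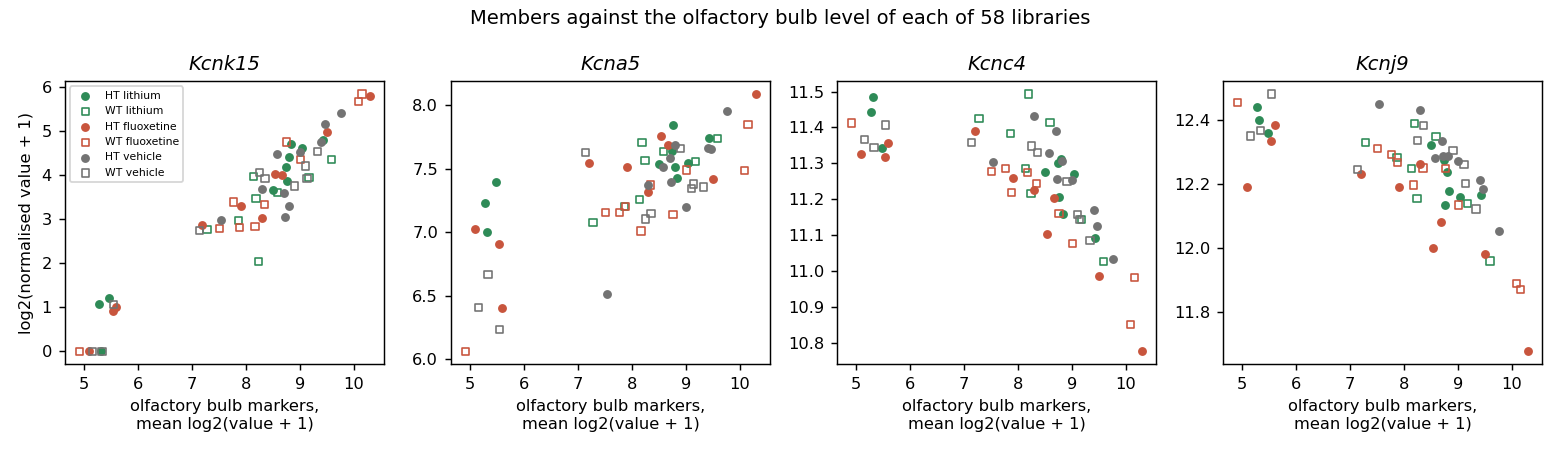
log2(normalised value + 1) of 4 members, picked after their values were seen, against the mean log2 level of the olfactory bulb markers in each of 58 libraries, coloured by treatment, with filled points for HT and open squares for WT. Kcnk15 and Kcna5 climb with the marker level (slopes 1.03 and 0.22) while Kcnc4 and Kcnj9 decline (-0.08 each).

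The first question is whether the members differed between genotypes. Averaged over treatments, none of the 78 passed limma at an adjusted p under 0.05, where 0.468% of all 16669 genes tested passed. An unadjusted p under 0.05 was reached by 6 members, and edgeR and DESeq2 called 0. The members' median log2 difference (HT minus WT) was -0.016, against -0.004 for all genes. The 3 smallest p-values belonged to Kcnj10 (-0.12, SE 0.0383, limma adjusted p = 0.13), its partner Kcnj16 (-0.09, adjusted p = 0.223) and the stretch-sensitive two-pore channel Kcnk2 (0.09, adjusted p = 0.283). With the olfactory bulb markers as a covariate, Kcnj10 passed (-0.12, limma adjusted p = 0.0356). None of 12 astrocyte markers passed between genotypes in the average, and their median log2 difference was -0.02.

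Under vehicle none passed either (background 0.048%, 10 members at an unadjusted p under 0.05, 0 by edgeR and by DESeq2). Kcnh6, an ERG-family channel, had normalised values of 62.54, 82.8 and 99.57 (lowest, median, highest) in HT vehicle libraries and 44.08, 60.43 and 82.3 in WT vehicle libraries. All 10 HT values lay above the WT median, though the ranges overlapped (log2 difference 0.37, limma adjusted p = 0.151). Kcnj16 averaged 678.2 ± 55.3 in HT vehicle and 769.7 ± 47.1 in WT vehicle libraries (SD, n = 10 each; adjusted p = 0.163 by limma). Kcnf1 averaged 6132 ± 272 in HT vehicle and 5615 ± 337 in WT vehicle libraries (SD, n = 10 each; adjusted p = 0.196 by limma). Under lithium none passed (background 0.06%, 7 members at an unadjusted p under 0.05, 0 by edgeR and by DESeq2). The smallest p-values there were those of Kcnj10 (-0.22, limma adjusted p = 0.228), Kcnh7 (0.19, adjusted p = 0.413) and Kcnk9 (0.16, adjusted p = 0.438).

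Under fluoxetine 1 member passed, lower, or 1.28% of the members against 0.612% of all genes (0.384% higher and 0.228% lower). Kcnc1, a fast voltage-gated channel that lets interneurons fire at high rates, had values of 3833, 4340 and 4938 (lowest, median, highest) in HT fluoxetine libraries and 4603, 4990 and 5650 in WT fluoxetine libraries. All 10 HT values lay below the WT median, and the upper HT values reached into the WT range. The log2 difference was -0.20 (SE 0.0441, limma adjusted p = 0.0272). The call was lost in 6 of 20 fits that left out 1 library (adjusted p up to 0.0793), and also with quantile normalisation, with exon length slope added as a term and in a fit of the 2 groups alone. Next came Kcnk2 (0.21, limma adjusted p = 0.0609) and the G protein-gated Kcnj6 (-0.39, adjusted p = 0.102), which did not pass. Kcnk2 did pass with quantile normalisation (adjusted p = 0.0473), the olfactory bulb covariate (0.04) and DESeq2 (0.0373), and in 5 of the 20 fits without 1 library (from 0.0227). Kcnj6 passed with that covariate (0.0456), by DESeq2 (0.0377) and without HT fluoxetine female 2 (0.0448). In this comparison 1 of 12 astrocyte and 1 of 12 microglia markers were higher, and the olfactory bulb markers' median was -0.73 with none past the threshold. Their part was not tested. Here 57 members lay below 0, with a median log2 difference of -0.051 against -0.003 for all genes.

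The second question is what each drug did within a genotype. Kcnn2 was the member that passed in all 4 comparisons of a drug with vehicle. Its small-conductance channel opens on calcium and prolongs the pause after spikes. Normalised values (lowest, median, highest) were 945.5, 1108 and 1157 in HT lithium, 955.7, 1024 and 1211 in HT fluoxetine, and 785.8, 910.2 and 1087 in HT vehicle libraries. In WT mice they were 980.6, 1066 and 1186 under lithium, 951.2, 1095 and 1201 under fluoxetine, and 787, 901.4 and 1029 under vehicle. Every library of each drug lay above the median of its vehicle group, and the highest vehicle libraries overlapped the drug range. Log2 differences (drug minus vehicle) were 0.27 for lithium in HT (limma adjusted p = 0.000356), 0.21 for fluoxetine in HT (adjusted p = 0.0053), 0.26 for lithium in WT (adjusted p = 0.00187) and 0.27 for fluoxetine in WT (adjusted p = 0.000382). Both drugs share a vehicle group within a genotype, so the comparisons of 1 genotype are not independent. All 4 calls held in every fit without 1 library and under all 14 alternatives tried. Lithium minus fluoxetine, averaged over genotypes, was 0.02 (95% interval -0.05 to 0.10, limma adjusted p = 0.717).

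Kcnj2, a strong inward rectifier that holds neurons and glia near rest, passed in 3 of the 4. Values were 436.2, 603.7 and 783.8 (lowest, median, highest) in HT fluoxetine, 433.4, 490.9 and 587.6 in HT lithium, and 344.3, 396.5 and 463.7 in HT vehicle libraries. In WT mice they were 448.9, 616.8 and 747.8 under fluoxetine, 437.2, 483.2 and 591 under lithium, and 377.1, 479.3 and 536 under vehicle. The fluoxetine median was the highest in both genotypes, and the HT vehicle median was the lowest of the 6. Log2 differences were 0.54 for fluoxetine in HT (SE 0.0843, 1.46-fold, limma adjusted p = 4.49e-05), 0.31 for lithium in HT (adjusted p = 0.0101) and 0.43 for fluoxetine in WT (1.34-fold, adjusted p = 0.000899). For lithium in WT it was 0.09 (95% interval -0.09 to 0.27, adjusted p = 0.705). Neither drug's difference depended on genotype past the threshold (limma adjusted p = 0.749 for fluoxetine and 0.409 for lithium).

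**Figure D3:**
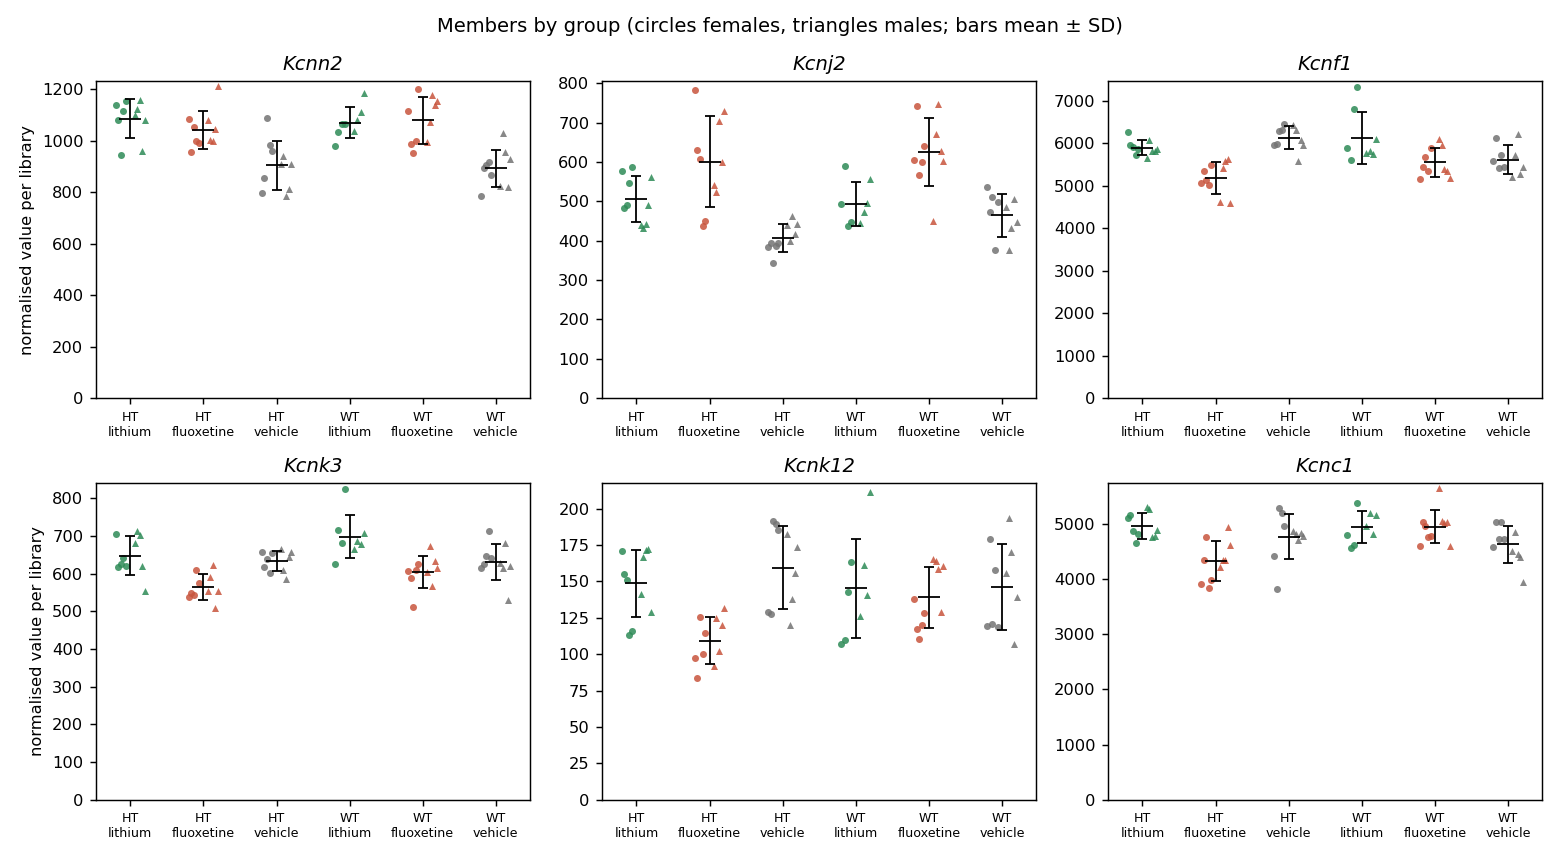
Normalised value per library (linear axis from 0) of 6 members in the 6 groups, with circles for females, triangles for males and bars for mean ± SD. Kcnn2 is higher in every drug group than under vehicle, Kcnj2 is highest under fluoxetine, and Kcnf1, Kcnk12, Kcnk3 and Kcnc1 are lowest in HT fluoxetine libraries.

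In HT mice fluoxetine changed 8 of 78 members, 2 higher and 6 lower, or 10.3% of the members against 12.8% of all genes (6.84% higher and 5.96% lower). Besides Kcnj2 and Kcnn2, which rose, the silent subunit Kcnf1, the two-pore channels Kcnk12 and Kcnk3, the ERG channel Kcnh2, the inward rectifier Kcnj4 and Kcnc1 fell. Kcnf1 had 4579, 5235 and 5616 (lowest, median, highest) in HT fluoxetine and 5581, 6180 and 6457 in HT vehicle libraries, with all 10 fluoxetine values below the vehicle median (log2 difference -0.24, SE 0.0408, limma adjusted p = 0.000163). HT minus WT under vehicle was 0.13 for Kcnf1 and did not pass (limma adjusted p = 0.196). The same HT vehicle libraries enter both comparisons. Kcnk12, of a halothane-inhibited subfamily, had 83.92, 108.4 and 131.5 in HT fluoxetine and 120.4, 164.8 and 191.5 in HT vehicle libraries. It fell by 0.53 on the log2 scale, the largest decline of the 6 (SE 0.109, limma adjusted p = 0.0011), and the ranges overlapped between 120.4 and 131.5. Kcnk3, an acid-sensitive leak channel, averaged 564.6 ± 35.4 in HT fluoxetine and 633.7 ± 27.7 in HT vehicle libraries (SD, n = 10 each; limma adjusted p = 0.0144). Kcnh2 averaged 836 ± 108 in HT fluoxetine and 969.3 ± 76.9 in HT vehicle libraries (SD, n = 10 each; limma adjusted p = 0.0112). Kcnj4 (-0.15, limma adjusted p = 0.0166) and Kcnc1 (-0.14, adjusted p = 0.0303) changed least. No auxiliary subunit passed, and the members' median log2 difference was -0.060 against -0.003 for all genes.

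The sequences before the starts of the member that rose most and of the 2 that fell with the smallest p are shown. These 3 calls held in every fit without 1 library and under every alternative, as did those of Kcnn2 and Kcnh2, whose sequences are not shown. Each is the 250 bases before the RefSeq start, 5′ to 3′ on the gene's strand, with GC boxes (GGGCGG) and the E-box CACGTG in capitals on either strand.
Kcnj2 (GRCm38.p6, chr11:111065914-111066163, plus strand): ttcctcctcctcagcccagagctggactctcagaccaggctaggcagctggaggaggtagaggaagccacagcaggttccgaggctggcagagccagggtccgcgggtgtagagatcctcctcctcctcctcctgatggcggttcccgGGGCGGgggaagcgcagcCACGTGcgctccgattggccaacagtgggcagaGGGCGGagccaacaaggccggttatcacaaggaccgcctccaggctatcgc
Kcnf1 (GRCm38.p6, chr12:17176889-17177138, minus strand): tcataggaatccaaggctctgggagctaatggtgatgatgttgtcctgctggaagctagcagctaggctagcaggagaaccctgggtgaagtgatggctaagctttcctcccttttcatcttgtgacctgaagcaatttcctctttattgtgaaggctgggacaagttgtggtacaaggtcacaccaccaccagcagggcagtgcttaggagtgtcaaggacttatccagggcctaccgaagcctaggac
Kcnk12 (GRCm38.p6, chr17:87797995-87798244, minus strand): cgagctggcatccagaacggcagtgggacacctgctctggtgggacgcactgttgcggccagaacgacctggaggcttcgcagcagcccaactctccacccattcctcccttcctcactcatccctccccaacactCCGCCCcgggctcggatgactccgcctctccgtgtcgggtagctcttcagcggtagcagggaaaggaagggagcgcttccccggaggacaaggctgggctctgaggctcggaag
The Kcnj2 window held 2 GC boxes, starting 102 and 51 bases before the start, and 1 E-box 84 bases before it. The Kcnk12 window held 1 GC box, 114 bases before the start and read on the opposite strand, and the Kcnf1 window none. A GC box is in 32.7% and this E-box in 6.02% of the 32851 windows in the RefSeq table. None of the 3 windows held the cAMP response element TGACGTCA (1.55% of windows), its half-site TGACG (17.8%, which the full element also counts), the AP-1 letters TGANTCA (6.75%), the glucocorticoid half-site AGAACA (16.1%) or TATAAA (12.4%). The GC content was 65.6% for Kcnj2, 51.2% for Kcnf1 and 64.8% for Kcnk12, against a median of 52.4%. Of the 78 members, 55 had an entry in that table.

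Other genes moved in the same HT comparison. Of 15 immediate early genes, whose transcription follows neuronal firing, 13 passed lower under fluoxetine (median log2 difference -0.71, summed value 11538 to 33928 in HT fluoxetine and 22465 to 44973 in HT vehicle libraries). Of 12 oligodendrocyte markers 6 passed higher (median 0.39, sums 90875 to 209654 in HT fluoxetine and 70901 to 146011 in HT vehicle), as did 4 of 12 astrocyte, 4 of 12 microglia, 2 of 10 endothelial, 1 of 10 mural and 1 of 8 thalamus markers, while 1 of 14 inhibitory neuron markers was lower. Their part in the potassium channel results was not tested. None of the 10 olfactory bulb markers passed, but their median log2 difference was -1.32. With their level as a covariate 21 members were called, 4 higher and 17 lower, or 26.9% against 26% of all genes. On the 54 libraries whose read counts could be recovered, Kcnk3 and Kcnj4 did not pass (adjusted p up to 0.095 and 0.101 over limma, edgeR and DESeq2). Kcnc1 was lost in 6 of 20 fits without 1 library (up to 0.084). It was also lost with quantile normalisation and in a fit of the compared groups alone (limma adjusted p up to 0.102).

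In WT mice fluoxetine changed 8 members, 6 higher and 2 lower (10.3%, against 7.39% of all genes, 3.98% higher and 3.41% lower). Kcnn2 and Kcnj2 rose, as did the A-type channel Kcnd3, the sodium-activated Kcnt1, the G protein-gated Kcnj6 and the axonal channel Kcna2. Kcnd3 had 2205, 2687 and 3087 (lowest, median, highest) in WT fluoxetine and 1743, 2172 and 2511 in WT vehicle libraries, with all 10 fluoxetine values above the vehicle median (log2 difference 0.31, limma adjusted p = 0.0141). Kcnj6 had 665.5, 1036 and 1177 in WT fluoxetine and 577.2, 757.9 and 1021 in WT vehicle libraries (0.38, limma adjusted p = 0.0359). Kcnt1 (0.19, limma adjusted p = 0.0201) and Kcna2 (0.17, adjusted p = 0.0419) rose less. Kcnj4 fell as it had in HT, averaging 3424 ± 224 in WT fluoxetine and 3763 ± 191 in WT vehicle libraries (SD, n = 10 each; limma adjusted p = 0.0413). Kcne4, an auxiliary subunit that restrains Kcnq and Kcna channels, was low, at 32.7 ± 7.63 in WT fluoxetine and 44.68 ± 5.88 in WT vehicle libraries (SD, n = 10 each; log2 difference -0.46, limma adjusted p = 0.0304). The members' median was 0.008, against -0.001 for all genes, and its sign changed under 3 alternatives.

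In each library the deviation of log2 values from the gene means over all libraries was regressed on log2 exon length. That slope averaged 0.0215 ± 0.0163 in WT fluoxetine and -0.0137 ± 0.0419 in WT vehicle libraries (SD, n = 10 each). With that slope as a covariate Kcnn2 and Kcnj2 alone passed, 2 of 78 members against 1.64% of all genes. Immediate early genes passed lower in 14 of 15 cases (median -0.86, sums 13391 to 26762 in WT fluoxetine and 29371 to 39385 in WT vehicle libraries), and their part in these results was not tested. Of 12 astrocyte markers 1 was lower, as were 2 of 10 endothelial and 1 of 12 excitatory neuron markers, 1 of 8 thalamus markers was higher, and no oligodendrocyte or microglia marker passed. The olfactory bulb markers' median was 0.65, with none past the threshold. Kcnt1 did not pass without WT vehicle female 1 or male 5 (adjusted p up to 0.0574). Kcnj6, Kcna2, Kcne4 and Kcnj4 were lost in 9, 11, 5 and 11 of 20 such fits.

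No member's response to fluoxetine depended on genotype past the threshold by limma (0 of 78 called, 0.042% of all genes, 16 members at an unadjusted p under 0.05). edgeR called 0, and DESeq2 called Kcnc1 (-0.27, adjusted p = 0.016). The 2 smallest limma p-values for the HT difference minus the WT difference belonged to Kcnf1 (-0.23, 95% interval -0.34 to -0.11, adjusted p = 0.104) and Kcnc1 (-0.24, interval -0.36 to -0.11, adjusted p = 0.115). Kcnk12, which fell in HT, differed by -0.48 (interval -0.79 to -0.17, adjusted p = 0.235).

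**Figure D4:**
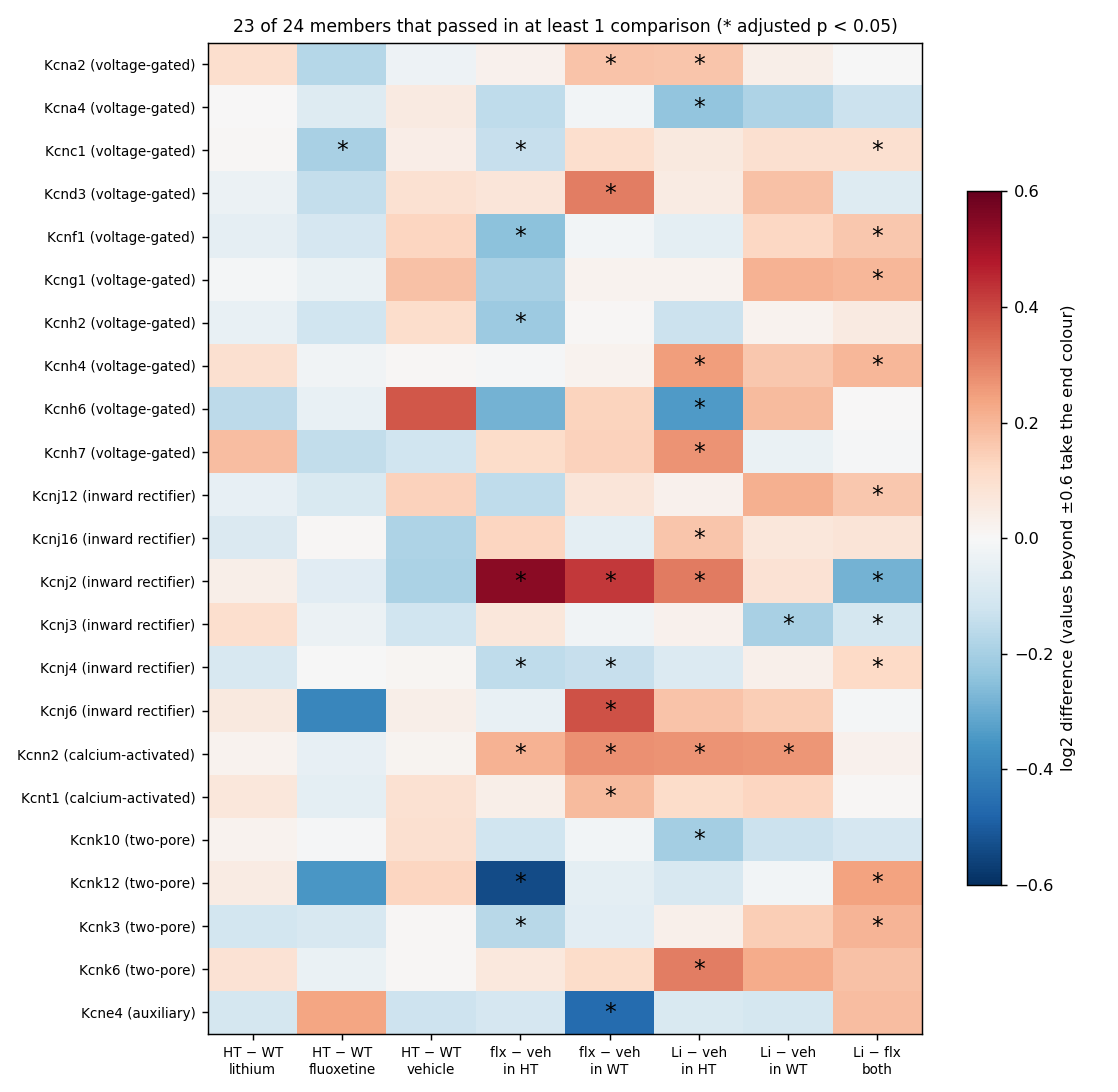
log2 differences of 23 of the 24 members that passed in at least 1 of the 12 comparisons, in 8 of them, with red for higher and blue for lower in the group named first and asterisks for limma adjusted p under 0.05. Kcnn2 carries an asterisk in all 4 comparisons with vehicle, and 1 asterisk stands in the 3 genotype columns, at Kcnc1 under fluoxetine.

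Lithium changed 11 members in HT mice, 8 higher and 3 lower, or 14.1% of the members and 14.1% of all genes (7.46% higher and 6.61% lower). Among those that rose were Kcnn2, Kcnj2, the two-pore channel Kcnk6, the ERG channel Kcnh7, the ether-a-go-go-like Kcnh4, Kcnj16 and Kcna2. Kcnk6 had 145.7, 185.4 and 236.2 (lowest, median, highest) in HT lithium and 121.1, 145.5 and 178 in HT vehicle libraries, all 10 lithium values above the vehicle median (log2 difference 0.31, limma adjusted p = 0.012). Kcnh7 had 5332, 5776 and 6736 in HT lithium and 3721, 5135 and 5618 in HT vehicle libraries (0.27, limma adjusted p = 0.0124). The A-type channel Kcna4 fell, averaging 489.4 ± 57 in HT lithium and 576.1 ± 48.6 in HT vehicle libraries (SD, n = 10 each; limma adjusted p = 0.0231). So did Kcnh6, at 63.8 ± 9.08 in HT lithium and 81.25 ± 13.4 in HT vehicle libraries (limma adjusted p = 0.0264), and the stretch-sensitive Kcnk10, at 266.5 ± 24.2 in HT lithium and 307.1 ± 25.9 in HT vehicle libraries (limma adjusted p = 0.0296). Kcnh6 was the member with the smallest p between HT and WT under vehicle (log2 difference 0.37), followed by Kcnj16 (-0.18). Neither passed there, and the same HT vehicle libraries enter both comparisons. Under lithium Kcnj16 was higher in HT females (0.34) and level in HT males (-0.01). It was the exception among 30 calls of the genotype and drug comparisons, of which 29 had 1 sign in both sexes. None of the 30 separated its groups without overlap. Calls were made on the mean of both sexes, which favours 1 sign, and neither count was set against all called genes. Sizes were alike in the sexes for Kcnf1 under fluoxetine in HT (-0.25 in females and -0.24 in males). Among the calls with unlike sizes were Kcna2 (0.04 in females and 0.30 in males), Kcnj6 (0.20 and 0.57) and Kcne4 (-0.71 and -0.22) under fluoxetine in WT. So were Kcnj2 under lithium in HT (0.49 in females and 0.13 in males) and Kcnj3 under lithium in WT (-0.31 and -0.07). Whether a drug response differed between the sexes was not tested.

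Several of these calls depended on the libraries fitted or on a covariate. The slope on exon length averaged 0.011 ± 0.0168 in HT lithium and -0.0207 ± 0.0346 in HT vehicle libraries (SD, n = 10 each). With it as a covariate Kcnh7 (limma adjusted p = 0.139), Kcna2 (0.33) and Kcnj16 did not pass. On the 54 libraries, which lack 3 of the HT vehicle and 1 of the HT lithium libraries, limma and edgeR called 3 members each and DESeq2 called 4, all higher, against 6.37%, 6.44% and 7.85% of all genes. Kcnn2, Kcnj2 and Kcnk6 held under all 14 alternatives and in every fit without 1 library. Kcnh7 held in every such fit but was lost under 3 alternatives (adjusted p up to 0.139). Kcna4 did not pass without HT lithium female 4 (adjusted p = 0.0558), and Kcnh4 not without HT lithium male 1, HT vehicle female 1 or HT vehicle male 4 (up to 0.0646). Kcnh6, Kcnk10, Kcna2 and Kcnj16 were lost in 5, 5, 7 and 8 of the 20 fits. In this comparison 3 of 15 immediate early genes passed lower (median -0.35), as did 4 of 10 endothelial and 2 of 10 mural markers, with 1 endothelial marker higher. No more than 1 marker in a direction passed in any other list. The olfactory bulb markers' median was -1.09 with none past the threshold. Their part was not tested.

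In WT mice lithium changed 2 members, 1 higher and 1 lower (2.56%, against 3.34% of all genes, 1.95% higher and 1.39% lower). Kcnn2 rose, and Kcnj3, a G protein-gated subunit, fell. Kcnj3 had 3001, 3743 and 4194 (lowest, median, highest) in the 8 WT lithium libraries and 3757, 4218 and 4559 in WT vehicle libraries, all 8 below the vehicle median (log2 difference -0.19, SE 0.0491, limma adjusted p = 0.0166). The call was lost without WT lithium female 3, female 4 or male 4 (adjusted p up to 0.0757). Kcnk3 averaged 698.8 ± 58 in WT lithium (SD, n = 8) and 631.5 ± 47.8 in WT vehicle libraries (n = 10) and did not pass (limma adjusted p = 0.0973). It was called with the olfactory bulb markers as a covariate. None of 15 immediate early genes passed. Of 12 astrocyte markers 2 were higher and 1 lower, and 1 excitatory neuron and 1 microglia marker were lower. The olfactory bulb markers' median was 0.79, with none past the threshold. Their part was not tested.

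The lithium response of no member depended on genotype (0 of 78 called by limma, edgeR and DESeq2, 0% of all genes by limma, 9 members at an unadjusted p under 0.05). The smallest p-values were those of Kcnh6 (-0.53, limma adjusted p = 0.196), Kcnj3 (0.22, adjusted p = 0.2) and Kcnip4 (0.27, adjusted p = 0.216).

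Setting the drugs against each other, lithium minus fluoxetine over both genotypes, 10 members passed, 8 higher and 2 lower (12.8%, against 12.3% of all genes, 6.62% higher and 5.71% lower). Kcnk3 had the smallest p (0.20, SE 0.0342, limma adjusted p = 2.44e-05). It averaged 648.2 ± 50.7 in HT lithium and 564.6 ± 35.4 in HT fluoxetine libraries (SD, n = 10 each), and 698.8 ± 58 in WT lithium (n = 8) and 603.7 ± 42.7 in WT fluoxetine libraries (n = 10). Kcnf1 was likewise higher under lithium (0.16, limma adjusted p = 9.12e-05), averaging 5891 ± 177 in HT lithium and 5183 ± 374 in HT fluoxetine libraries (SD, n = 10 each). Kcnj2 was lower under lithium (-0.29, limma adjusted p = 0.000995). Higher as well were Kcnj4 (0.12), Kcnh4 (0.20), the silent subunit Kcng1 (0.20), Kcnk12 (0.24), Kcnc1 (0.10) and the strong rectifier Kcnj12 (0.16), with limma adjusted p between 0.00802 and 0.0382. Kcnj3 was lower (-0.11, limma adjusted p = 0.0297). All these values are averages over the genotypes, and the drugs were not compared within each genotype. Kcnk3, Kcnf1, Kcnc1 and Kcnk12 had fallen under fluoxetine in HT (-0.17, -0.24, -0.14 and -0.53) and passed for neither drug against vehicle in WT. Kcnk3, Kcnf1, Kcnj2, Kcnj4 and Kcnh4 held in all 38 fits without 1 library and under all 14 alternatives. Kcnj3, Kcng1, Kcnk12, Kcnc1 and Kcnj12 were lost in 4, 5, 10, 12 and 16 of the 38. With the olfactory bulb markers as a covariate 20 members were called, 16 higher and 4 lower (25.6%, against 18.4% of all genes). Immediate early genes passed higher under lithium in 12 of 15 cases (median 0.40). Lower under lithium were 3 of 12 oligodendrocyte markers (median -0.28), 3 of 12 microglia markers and 1 each of the astrocyte, endothelial, mural, oligodendrocyte precursor and thalamus lists. Oligodendrocyte sums were 88939 to 128740 in HT lithium and 90875 to 209654 in HT fluoxetine libraries, and 102549 to 167882 in WT lithium and 91844 to 191678 in WT fluoxetine libraries. Higher were 2 of 12 astrocyte, 2 of 14 inhibitory neuron and 2 of 5 blood markers. The part of these lists was not tested.

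By class, 4 of 12 inward rectifiers passed between the drugs (33.3%, 2 higher and 2 lower), 2 of 11 two-pore members (18.2%) and 4 of 37 voltage-gated members (10.8%), against 12.3% of all genes, and no calcium-activated or auxiliary member passed. These classes are small, and their shares were not tested. In the comparisons with vehicle the calcium-activated calls, Kcnn2 in all 4 and Kcnt1 under fluoxetine in WT, were all higher. That is 1 of 7 (14.3%) in 3 comparisons, against 12.8% of all genes for fluoxetine in HT, 14.1% for lithium in HT and 3.34% for lithium in WT, and 2 of 7 (28.6%) against 7.39% for fluoxetine in WT. Of the auxiliary members Kcne4 alone passed, once. The other 10, the Kcnab, Kcnip and Kcnmb subunits, passed in none of the 12 comparisons. That held for 54 of all 78 members, these 10 included, and the share of all genes that passed in none was not counted.

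Between sexes none of the 78 passed (0.132% of all genes, 6 members at an unadjusted p under 0.05, 0 by edgeR and by DESeq2). The smallest p-values for males minus females were those of Kcnh4 (0.12, limma adjusted p = 0.444), Kcng3 (0.30, adjusted p = 0.448) and Kcnt1 (0.08, adjusted p = 0.468).

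A list of 41 partner genes of these channels was set beside them, of which 38 were tested. Fluoxetine in HT raised Abcc9, a subunit of ATP-sensitive channels (0.28, limma adjusted p = 0.037), and lowered 4, in all 5 of 38 or 13.2% against 12.8% of all genes. The 4 were Amigo1, an accessory of delayed rectifier channels (-0.13, adjusted p = 0.000991), Dpp6, which speeds Kcnd channels (-0.11, adjusted p = 0.00462), and the G protein subunits Gng3 (-0.17, adjusted p = 0.00827) and Gnb2 (-0.11, adjusted p = 0.0451), all by limma. Lithium in HT lowered Dpp6, Gnb2 and Amigo1 (-0.10, -0.14 and -0.08) and raised the scaffold Dlg2 (0.15), with limma adjusted p from 0.00772 to 0.0346, or 10.5% of the partners against 14.1% of all genes. Both shares lie near or below that of all genes. These 2 comparisons share the HT vehicle libraries. No partner passed under fluoxetine in WT, and Hcn3, a pacemaker channel, passed under lithium in WT (0.24, limma adjusted p = 0.0193), or 2.63% against 3.34% of all genes. Lrrc38 and Gng3 were higher under lithium than under fluoxetine (0.30 and 0.10, limma adjusted p = 0.0124 and 0.03), among the 7.89% of partners that passed there, against 12.3% of all genes. None passed between genotypes.

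Within groups the members spread about as much as other genes, with a median SD of 0.17 on the log2 scale against 0.15 for all genes tested. Kcnk15 spread most (1.60), followed by Kcnh8 (0.70). Some members share exon bases with another gene, and whether the counting used strand is not given in the sources used here, so reads there are uncertain. Among those named, Kcnk3 shares 229 of its 3976 exon bases with Gm9899 on the opposite strand (mean 645.5), Kcnh7 shares 696 of 15226 with Gca (379.9) and Kcnd3 shares 165 of 9587 with Kcnd3os (23.66). Kcnn2 shares 284 and 323 of 7468 bases with a pair of genes of means 6.248 and 8.567.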

How the data were processed

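RNA of 58 mouse prefrontal cortex libraries (TruSeq stranded mRNA kit, per the labels) was quantified by the authors with Salmon 0.11.2, R 3.6.0 and DESeq2 1.19.11 on GRCm38, per the submitters' processing notes. The annotation release is not given in the sources used here. The authors deposited 1 table of normalised signal values, counts divided by a size factor per library. Every nonzero value was a whole multiple of 1 step per library within a tolerance of 0.01 (100% of values), worth 0.75 to 1.27 per read. Whole reads were recovered from the deposited signal in 54 libraries. In HT lithium male 3, HT vehicle female 2, male 1 and male 5 the step lay too close to 1.

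Groups came from the labels. limma 3.58.1 (R 4.3.3) was fitted to log2(value + 1) of the 16669 genes with a mean of at least 10, with 1 coefficient per group of genotype, treatment and sex and a variance trend. p-values were adjusted by Benjamini-Hochberg over all genes tested and called under 0.05. Fold changes on this scale understate those of low genes. Named were all members that passed, at most 12 in a direction, or the 3 smallest p-values where fewer than 3 passed, for level the 4 highest and the lowest per kb in a class, and the 4 partners of smallest p. Some genes that this rule names are not reported here. Exon lengths and overlaps came from GENCODE M21, and 18077 IDs had a symbol. Alternatives were quantile normalisation, no trend, no minimum or a minimum of 100, pseudocounts of 0.5 and 10, a replicate block, olfactory bulb, striatal or exon length covariates, the compared groups alone, each library left out, and limma, edgeR 4.0.16 and DESeq2 1.42.0 on the 54 libraries. The exon length covariate and limma on the 54 libraries were chosen after seeing the data. Replicate pairs of 1 group differed by at least 2.94 times the sampling noise. In simulated data for fluoxetine minus vehicle in HT with 16669 genes, 6% of 1.1-fold, 42% of 1.2-fold, 82% of 1.3-fold and 98% of 1.5-fold changes were recovered. The 50 genes changed at each fold had means over 50, and no dissection differences were simulated. Far fewer genes changed than passed in the real comparison, so these shares do not carry over to it. The members, gene lists and tests were chosen with earlier results of these data known.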

Additional observations from a re-analysis of the deposited data

Results flagged for a closer look

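In 14 of 258 sets of values (43 named members in each of 6 groups of genotype and treatment) 1 library stood far from the other libraries of its group by Dixon's test, which chance gives in about 1 of 20 groups.

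Among HT libraries, Kcnip2 was lowest in HT lithium female 4 (2136, group median 2456), where Kcnv1 was highest (4361, median 3428). Kcnj14 was highest in HT lithium female 2 (74.45, median 44.14). Under fluoxetine Kcne4 was highest in HT female 5 (69.55, median 37.63), Kcnn2 in HT male 5 (1211, median 1024) and Kcnk10 in HT male 4 (358.7, median 280.8), the library with the highest olfactory bulb markers. Under vehicle Kcnj4 was lowest in HT male 3 (3454, median 3795) and Kcnj3 in HT female 3 (3300, median 3901), while Kcng1 was highest in HT female 3 (2321, median 1687).

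Among WT libraries, fluoxetine male 1, another with high olfactory bulb markers, was highest for Kcnc1 (5650, median 4990) and Kcnh2 (1099, median 888.9). Kcnk3 was highest in WT lithium female 4 (825.7, median 684.3), Kcnh3 in WT fluoxetine male 2 (5611, median 4746) and Kcnh7 in WT vehicle female 3 (7151, median 5012). Over all 78 members 26 of 468 sets stood out this way, 5 of them in HT fluoxetine male 4.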

How the results depend on the processing

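No log2 difference of a named member changed sign under any alternative. The members' median, which was not tested, did so where it lay near 0. For fluoxetine in WT (main 0.008) it was -0.007 with a minimum of 100, -0.002 with the striatal covariate and -0.004 with the exon length slope, and for lithium by genotype (main 0.014) -0.005 by DESeq2. Without 1 library it changed sign in 2 fits for fluoxetine in WT, 4 for lithium by genotype and 1 for HT minus WT under vehicle. The counts of called members not given here stayed within 1.5 times. With the olfactory bulb markers as a covariate the count was 1 for HT minus WT averaged over treatments (main 0), 4 for HT minus WT under fluoxetine (main 1), 21 for fluoxetine in HT (main 8), 6 for lithium in WT (main 2) and 20 for lithium minus fluoxetine (main 10). With the exon length slope it was 0 for HT minus WT under fluoxetine and 2 for fluoxetine in WT (main 8). A fit of the compared groups alone gave 0 for HT minus WT under fluoxetine and 1 for lithium in WT. DESeq2 on 54 libraries gave 3 for HT minus WT under fluoxetine, 4 for lithium in HT (main 11) and 1 for fluoxetine by genotype (main 0). edgeR and limma on those libraries gave 3 each for lithium in HT. Fewer libraries enter those fits, and for the other settings the cause was not tested. Only some of these counts have the share of all genes under the same setting given above. The counts here show how calls depend on the processing and are not results about the members.

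Without 1 library the counts ranged from 0 to 3 for HT minus WT under fluoxetine, 7 to 13 for fluoxetine in HT, 4 to 10 for fluoxetine in WT, 5 to 14 for lithium in HT, 1 to 3 for lithium in WT, 0 to 1 for fluoxetine by genotype and 5 to 15 for lithium minus fluoxetine, and stayed at 0 for the rest. For HT minus WT under fluoxetine the count was 0 without HT fluoxetine female 1, 4, 5 or male 1, WT fluoxetine female 2 or male 4, 2 without WT fluoxetine female 4 or 5, and 3 without HT fluoxetine female 2, 3 or male 4. For fluoxetine in HT it was 13 without HT fluoxetine male 4. For fluoxetine in WT it was 4 without WT fluoxetine female 2 or male 4, WT vehicle female 1, 4 or male 5, and 5 without WT fluoxetine female 1 or male 5. For lithium in HT it was 5 without HT lithium male 1, 6 without HT lithium female 4 and 7 without HT vehicle male 2 or 4. For lithium in WT it was 1 without WT lithium female 3, 4 or male 4. For lithium minus fluoxetine it was 5 without WT lithium female 4 or male 4 and 6 without WT lithium female 3. Fluoxetine by genotype gave 1 without HT fluoxetine female 3 or male 4, or HT vehicle female 2.

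Libraries with 1 replicate number did not deviate together (mean correlation -0.01 over 140 pairs, 0.00 over 560 pairs of other numbers, 12 of 58 libraries closest to their own number), so the numbers do not pair them. With the replicate block the counts were 8 for fluoxetine in HT, 6 in WT, 10 for lithium in HT, 2 in WT and 8 for lithium minus fluoxetine. The mean values of Kcnk15, Kcnh8 and Kcnmb1 lie near the minimum, so counting depth may limit them, which was not tested. Kcnk15 and Kcnh8 also rose with the olfactory bulb markers (slopes 1.03 and 0.35), while the slope of Kcnmb1 did not pass.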
